A study of Mus musculus and Acomys cahirinus with 16 samples.

Results

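The epidermal growth factor (EGF) receptor ligands and the ErbB receptors were followed by symbol through skin transcriptomes of the laboratory mouse (Mus musculus) and a spiny mouse (Acomys cahirinus). The 10 genes were the ligands Areg, Ereg, Hbegf, Tgfa, Epgn and Btc, the receptors Egfr, Erbb2 and Erbb3, and the receptor inhibitor Errfi1, out of 56980 mouse and 19818 spiny mouse entries in the deposited count tables. All 10 symbols matched once in each table, and all 10 passed the low-count filter in both species, with no member below 40 counts in any sample. Polyadenylated RNA was sequenced from 16 skin samples in 4 groups of 4, namely untreated mouse, DMBA/TPA-treated mouse, untreated spiny mouse and DMBA/TPA-treated spiny mouse. DMBA is a carcinogen that initiates skin tumours, and TPA is a phorbol ester tumour promoter that activates protein kinase C. Strain, age, sex, dose, schedule, the time from the last treatment and whether a treated sample held a tumour are not given in the sources used here. The labels do not say that samples came from separate animals, so p-values measure the spread between these samples, which may be partly technical.

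EGF family ligands are made as membrane-anchored precursors and are cut free by ADAM proteases, of which ADAM17 sits under the control of the iRhom proteins. Ligand binding lets EGFR pair with itself or with ErbB2, which has no known ligand of its own, or with ErbB3, whose kinase is weak and whose own ligands are the neuregulins. The receptor pair then drives the Ras and ERK cascade, which switches on its own inhibitors, and the Errfi1 protein (also called Mig6) binds the EGFR kinase domain and blocks it. In skin this system is known for the growth and repair of the epidermis, for hair follicle cycling and for the promotion stage of chemically induced skin tumours.

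Of the ligand genes, 4 lie side by side in both genomes. On mouse chromosome 5 (GRCm39), Epgn spans 91175323 to 91183074, Ereg 91222481 to 91241505 and Areg 91287458 to 91296291, all on the plus strand, and Btc spans 91505120 to 91550853 on the minus strand. The same 4 genes lie on scaffold_16 of the spiny mouse assembly AcoCah2, with Epgn at 26815764 to 26823228, Ereg at 26757665 to 26776616 and Areg at 26700627 to 26710139 on the minus strand, and Btc at 26480228 to 26526793 on the plus strand. Order and relative orientation were the same in both, and the cluster covered 375.5 kb in mouse and 343.0 kb in spiny mouse. The other mouse members lie apart, with Tgfa on chromosome 6 (86172205 to 86252701), Hbegf on chromosome 18 (36637980 to 36648858), Egfr on chromosome 11 (16702203 to 16868158), Erbb2 on chromosome 11 (98303296 to 98328542), Erbb3 on chromosome 10 (128403392 to 128425521) and Errfi1 on chromosome 4 (150938376 to 150953349). Exons of mouse Ereg overlap Gm19610, exons of Tgfa overlap Gm43917, and exons of Erbb2 overlap Mien1 in both species, each on the opposite strand. Fragments were counted without regard to strand, so reads of these neighbours cannot be told apart from those of the member.

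**Figure D1:**
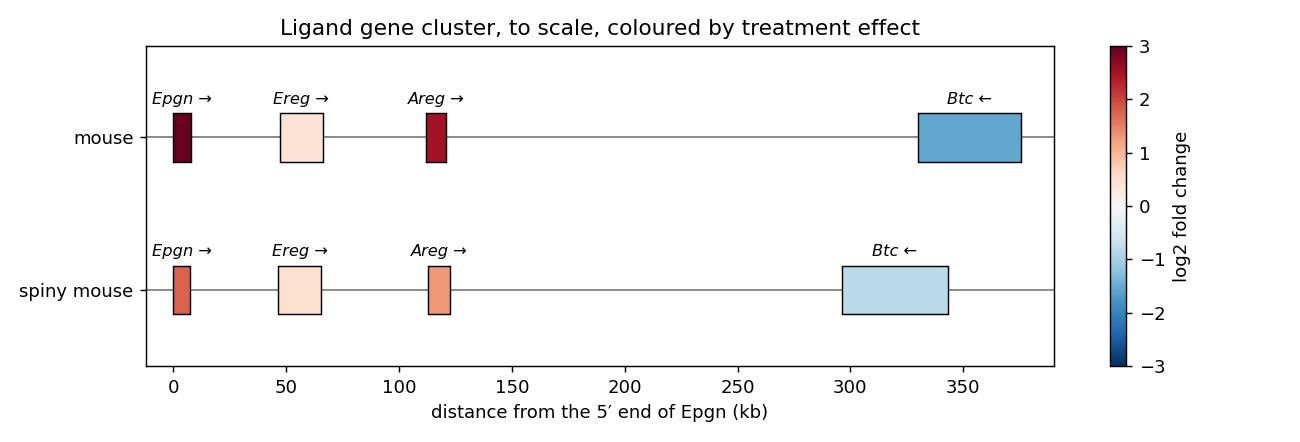
Map of the ligand gene cluster in mouse and spiny mouse, to scale, with the distance from the 5′ end of Epgn in kilobases on the horizontal axis and each gene coloured by its log2 fold change after DMBA/TPA. Epgn, Ereg, Areg and Btc follow in the same order over 375.5 kb in mouse and 343.0 kb in spiny mouse, and Btc, at the far end and on the opposite strand, is the gene with a fold change below 0 in both.

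Promoter windows of 300 bases (250 before the start and 50 after it, RefSeq, GRCm38.p6) were used for 7 members, in 8 windows. They were searched for 3 motifs: the AP-1 site TGANTCA and the cAMP response element TGACGTCA, each of which reads the same on both strands, and the TATA box TATAAA on the sense strand only. None of the member windows searched held TGANTCA, which occurs in 7.81% of all 32851 windows. Hbegf was left out of the search, and no window was at hand for Ereg or Erbb3. TGACGTCA, present in 1.79% of all windows, occurred in Areg at position -61 and in 1 of the Errfi1 windows at position -51, counted from the start of transcription. TATAAA, present in 8.32% of all windows, occurred in Areg at -31, in the same Errfi1 window at -28 and in Epgn at -86. The Epgn position is counted from the RefSeq start. In the gene model counted here Epgn begins further upstream, at 91175323, and 53 of the 120 bases ahead of the RefSeq start are exonic. Counted from 91175323, the Epgn TATAAA would lie nearer the start. The Areg and Errfi1 windows are printed because both hold the paired arrangement of TGACGTCA and TATAAA, and that of Tgfa because it is a ligand with a clear rise in both species and none of the 3 motifs. Each is the 120 bases ahead of the start, 5′ to 3′, with the 2 motifs in capitals, placed on GRCm39 by an exact match: Areg at chr5:91287338-91287457, Errfi1 at chr4:150939407-150939526, ahead of an alternative first exon within the gene, and Tgfa at chr6:86172084-86172203, all on the plus strand.
Areg: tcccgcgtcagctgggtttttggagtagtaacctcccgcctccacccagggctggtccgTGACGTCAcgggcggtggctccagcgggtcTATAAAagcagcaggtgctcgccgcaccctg
Errfi1: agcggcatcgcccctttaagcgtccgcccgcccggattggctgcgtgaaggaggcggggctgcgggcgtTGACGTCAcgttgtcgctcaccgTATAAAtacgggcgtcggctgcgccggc
Tgfa: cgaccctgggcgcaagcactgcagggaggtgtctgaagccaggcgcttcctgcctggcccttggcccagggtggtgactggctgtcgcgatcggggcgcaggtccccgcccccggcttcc
A match describes these letters only, and neither binding nor promoter use was measured.

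Libraries held 19608787 to 30561256 counted fragments, and 3 counts corresponded to 0.102 to 0.158 CPM (counts adjusted to equal library size with TMM factors). Skin markers were present in every group. The 6 basal keratinocyte markers summed to 6184 to 9035 CPM in untreated mouse and 14079 to 18793 in treated mouse. In spiny mouse they summed to 7768 to 9060 CPM untreated and 16818 to 21159 CPM treated. Of these 6, 2 were called higher and 1 lower in mouse, and 5 higher in spiny mouse (test given below). Their median log2 fold change was 0.15 in mouse and 0.77 in spiny mouse. Skeletal muscle markers were also abundant and were lower after treatment, at 11708 to 18050 against 2866 to 3840 CPM in mouse and 17347 to 21591 against 5774 to 11966 CPM in spiny mouse. Anagen hair follicle markers, which mark the growth phase of the hair cycle, summed to 12.5 to 40.4 CPM in 3 untreated mouse samples, to 2274 CPM in untreated mouse replicate 2 and to 20099 to 22046 CPM in treated mouse. In spiny mouse they summed to 1108 to 11262 CPM untreated and 193 to 3280 CPM treated. All 7 anagen markers were called higher in mouse, and 2 of the 7 lower in spiny mouse. For the species difference (spiny mouse minus mouse, given below) all 7 were called smaller, with a median of -6.89. Untreated mouse replicate 2 stood apart, and values without it are given where it moved the call of a member or the count of a list. In bulk tissue, fewer cells of a type and less RNA per cell cannot be told apart.

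In mouse skin, DMBA/TPA was followed by higher transcript levels of 4 of the 6 ligands (Areg, Hbegf, Tgfa and Epgn, by 5.37-fold to 8.42-fold), of all 3 receptors (by 1.33-fold to 1.37-fold) and of Errfi1. Betacellulin (Btc) was lower, and epiregulin (Ereg) did not pass the test. A gene was called at a Benjamini-Hochberg adjusted p under 0.05 in the quasi-likelihood test of edgeR over all genes. Of the 10 members, 8 were called higher and 1 lower, where 61.2% of all genes tested were called (25.9% higher and 35.3% lower). For 8 members the treated samples were all on 1 side of the untreated ones, against 58.6% of all genes tested. The members' median log2 fold change was 0.54, beside -0.15 over all genes.

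In spiny mouse skin the same 4 ligands rose, but by 1.95-fold to 4.90-fold, Ereg also passed the test, and Btc fell. Egfr fell, while Erbb2 and Erbb3 did not pass the test, and Errfi1 rose as in mouse. Of the 10 members, 6 were called higher and 2 lower, where 55.1% of all genes tested were called (28.2% higher and 26.9% lower). Groups did not overlap for 7 members, against 50.9% of all genes tested, and the members' median log2 fold change was 0.53, beside -0.01 over all genes.

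The species difference was tested as the log2 fold change in spiny mouse minus that in mouse, over the 13656 symbols tested in both. Of the 10 members, 6 were called, and each of the 6 (Areg, Hbegf, Tgfa, Egfr, Erbb2 and Erbb3) had the smaller, or for the receptors the more negative, change in spiny mouse. The background was 46.1% of symbols called, 21.4% larger and 24.7% smaller in spiny mouse. The members' median difference was -0.73, beside -0.03 over all symbols.

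**Figure D2:**
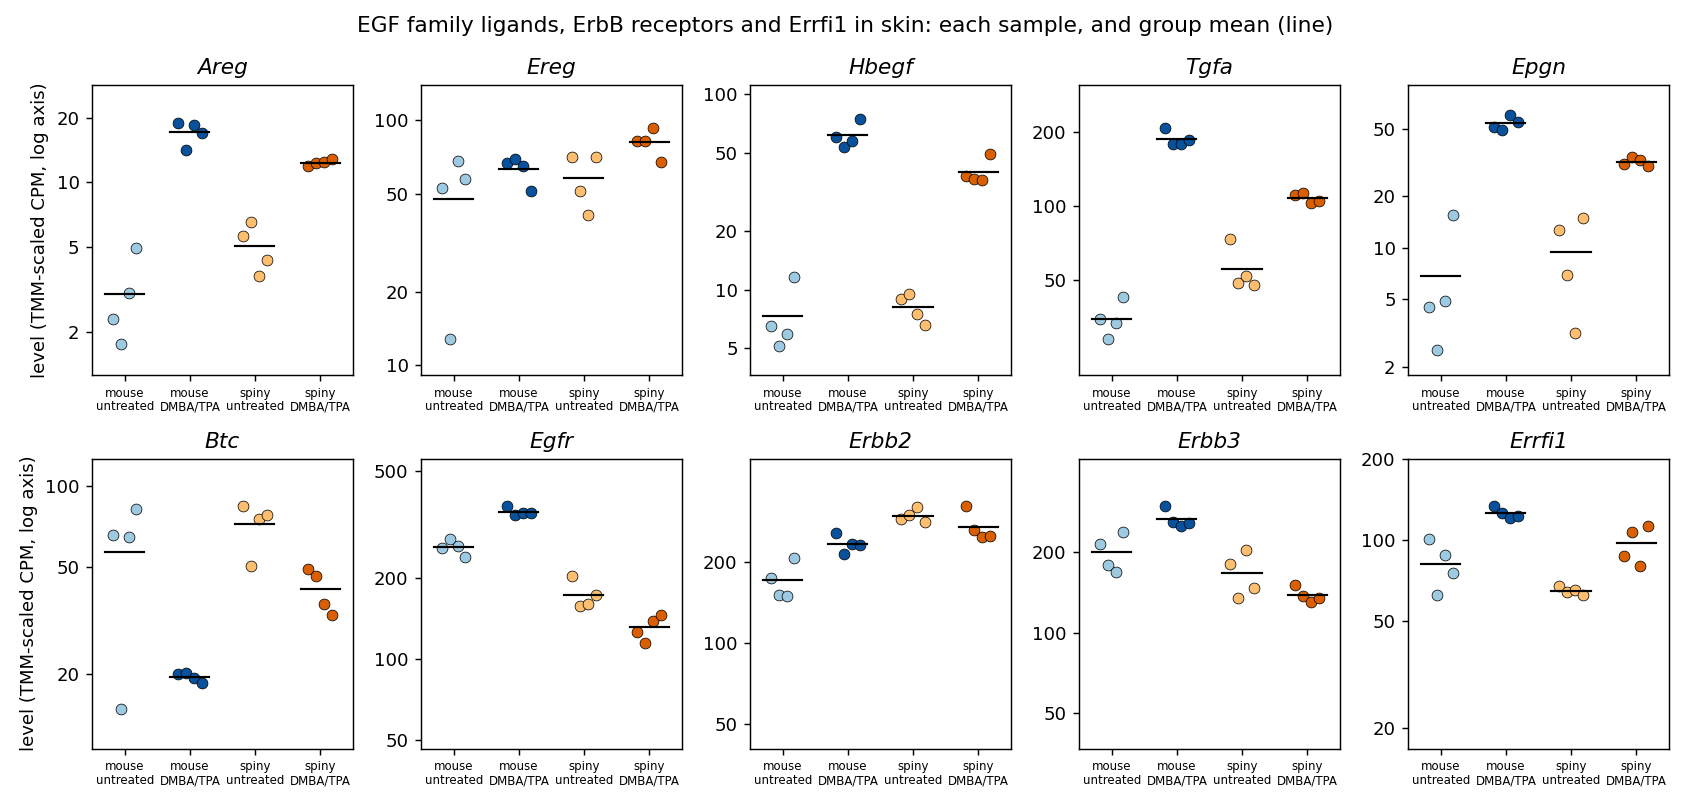
Level of each member in every sample as TMM-scaled CPM on a log axis, with the 4 groups along the horizontal axis, points for samples and a line for the group mean. Hbegf, Tgfa, Areg and Epgn lie higher in every treated sample than in any untreated sample of the same species, Btc lies lower in treated samples except for untreated mouse replicate 2, and Egfr moves up in mouse and down in spiny mouse.

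Heparin-binding EGF-like growth factor, encoded by Hbegf, is a ligand of EGFR and ErbB4 that keratinocytes release at wound edges. Its level in untreated mouse replicates 1 to 4 was 6.51, 5.13, 5.90 and 11.6 CPM, and in treated mouse 60.3, 53.6, 57.4 and 73.9 CPM. Untreated spiny mouse samples had 8.95, 9.52, 7.52 and 6.58 CPM, and treated samples 38.1, 36.5, 36.5 and 48.9 CPM. Treated samples were all above untreated samples in each species. Levels are not set across the species here, since the tables were annotated and scaled separately and the order of treated Hbegf differs between CPM and CPM per kb of exon. The log2 fold change was 3.07 in mouse (SE 0.254, edgeR adjusted p 2.17e-05) and 2.29 in spiny mouse (SE 0.144, edgeR adjusted p 9.94e-06). Hbegf had the largest estimated rise of the 10 members in spiny mouse, and in mouse it and Epgn (2.98) were within a standard error of each other and changed order with the replicate block (3.13 and 3.29) and without untreated replicate 4 (3.39 and 3.77). The difference of -0.78 (SE 0.292, edgeR adjusted p 0.0387) lay near the threshold and was lost when any of 8 of the 16 samples was left out, namely untreated mouse replicate 1, treated mouse replicates 1 and 4, untreated spiny mouse replicates 1 and 2, and treated spiny mouse replicates 1, 2 and 3, with differences of -1.10 to -0.70 and edgeR adjusted p up to 0.0799 over all leave-outs.

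Transforming growth factor alpha, the product of Tgfa, is an EGFR ligand of the epidermis and the hair follicle. Untreated mouse samples had 34.9, 28.9, 33.5 and 42.7 CPM, and treated mouse samples 207, 179, 179.8 and 187 CPM. In spiny mouse, untreated levels were 73.8, 49.0, 52.1 and 47.8 CPM, and treated levels 111, 114, 103 and 105 CPM. Every untreated spiny mouse sample was above every untreated mouse sample, and after treatment the order of the species was the opposite, again with no overlap. Both orders also held in CPM per kb of exon, but the tables were scaled separately and these orders carry no test. Mouse Tgfa rose by 2.43 on the log2 scale (SE 0.136, edgeR adjusted p 4.4e-06), spiny mouse Tgfa by 0.96 (SE 0.132, edgeR adjusted p 0.000325). Of the 6 ligands, Tgfa had the largest species difference, -1.46 (SE 0.190, edgeR adjusted p 2.39e-05).

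Amphiregulin, the product of Areg (ENSMUSG00000029378), is an EGFR ligand. Levels were 2.28, 1.75, 3.04 and 4.92 CPM in untreated mouse and 19.1, 14.2, 18.5 and 17.1 CPM in treated mouse. They were 5.61, 6.5, 3.64 and 4.34 CPM in untreated spiny mouse and 11.9, 12.3, 12.5 and 12.8 CPM in treated spiny mouse. Treated samples were above untreated samples without overlap in both species, and the 4 treated spiny mouse samples spanned less than 1 CPM. Areg rose by 2.52 in mouse (SE 0.290, edgeR adjusted p 0.000115) and by 1.30 in spiny mouse (SE 0.169, edgeR adjusted p 0.000242), with a difference of -1.22 (SE 0.337, edgeR adjusted p 0.00801).

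Epigen, the product of Epgn, is an EGFR ligand of low affinity. Untreated mouse samples had 4.48, 2.5, 4.87 and 15.5 CPM and treated mouse samples 51.3, 49.2, 60.1 and 54.4 CPM. Spiny mouse samples had 12.6, 6.86, 3.17 and 14.9 CPM untreated and 30.9, 33.9, 32.6 and 30.1 CPM treated. The untreated samples were scattered over several-fold in both species, with mouse replicate 4 the highest, while the treated samples lay close together and apart from them. Epgn rose by 2.98 in mouse (SE 0.482, edgeR adjusted p 0.000747), or by 3.77 without untreated replicate 4 (edgeR adjusted p 3.34e-05), and by 1.77 in spiny mouse (SE 0.382, edgeR adjusted p 0.00372). The difference of -1.21 (SE 0.632) did not pass the test (edgeR adjusted p 0.130). It passed without untreated mouse replicate 4, at -1.99 (edgeR adjusted p 0.00467), and without untreated spiny mouse replicate 3, at -1.50 (edgeR adjusted p 0.0418).

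Epiregulin, the product of Ereg, binds EGFR and ErbB4. Its untreated mouse levels were 53.2, 12.8, 68.4 and 57.4 CPM, with replicate 2 far below the others, and its treated mouse levels were 67.1, 69.8, 65.3 and 51.3 CPM. In spiny mouse they were 70.6, 51.5, 41.0 and 70.8 CPM untreated and 82.2, 82.4, 93.1 and 67.8 CPM treated. The groups overlapped in both species. The log2 fold change of mouse Ereg was 0.40 (SE 0.401, edgeR adjusted p 0.402), and of 0.18 without untreated replicate 2 (edgeR adjusted p 0.196). Spiny mouse Ereg was called at 0.48 (SE 0.176, edgeR adjusted p 0.0435), but the call was lost without untreated replicate 2 or 3 or treated replicate 1, 2 or 3, with values of 0.34 to 0.58 and edgeR adjusted p of 0.0297 to 0.103 over the 8 leave-outs. It was also lost with the replicate number as a block (0.50, edgeR adjusted p 0.0858) and with upper-quartile factors (0.44, edgeR adjusted p 0.0563). The species difference was 0.08 (SE 0.473, edgeR adjusted p 0.911).

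Betacellulin, the product of Btc, binds EGFR and ErbB4 and was the single ligand that fell. Untreated mouse levels were 65.8, 14.7, 64.8 and 82.5 CPM, and treated mouse levels 19.9, 20.1, 19.2 and 18.4 CPM. Spiny mouse levels were 84.4, 50.3, 75.6 and 78.0 CPM untreated and 49.0, 46.2, 36.4 and 33.0 CPM treated. In mouse, untreated replicate 2 lay below the treated samples and the other 3 lay far above them, and in spiny mouse the groups did not overlap. Mouse Btc fell by 1.55 on the log2 scale (SE 0.414, edgeR adjusted p 0.00969), and by 1.78 without untreated replicate 2 (edgeR adjusted p 6.47e-08). Spiny mouse Btc fell by 0.81 (SE 0.178, edgeR adjusted p 0.0041). The difference of 0.74 (SE 0.479, edgeR adjusted p 0.218) was called at 0.97 without untreated mouse replicate 2 (edgeR adjusted p 0.00197). Untreated mouse replicate 2 is the untreated mouse library with high anagen hair markers. In untreated spiny mouse, replicates 1 and 2 had similar anagen sums (10514 and 11262 CPM) and the highest and lowest Btc levels of the group. The part of the hair cycle in the levels of Btc and Ereg was not tested. Nor was it tested for the other members, for the species differences or for the pathway lists below.

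**Figure D3:**
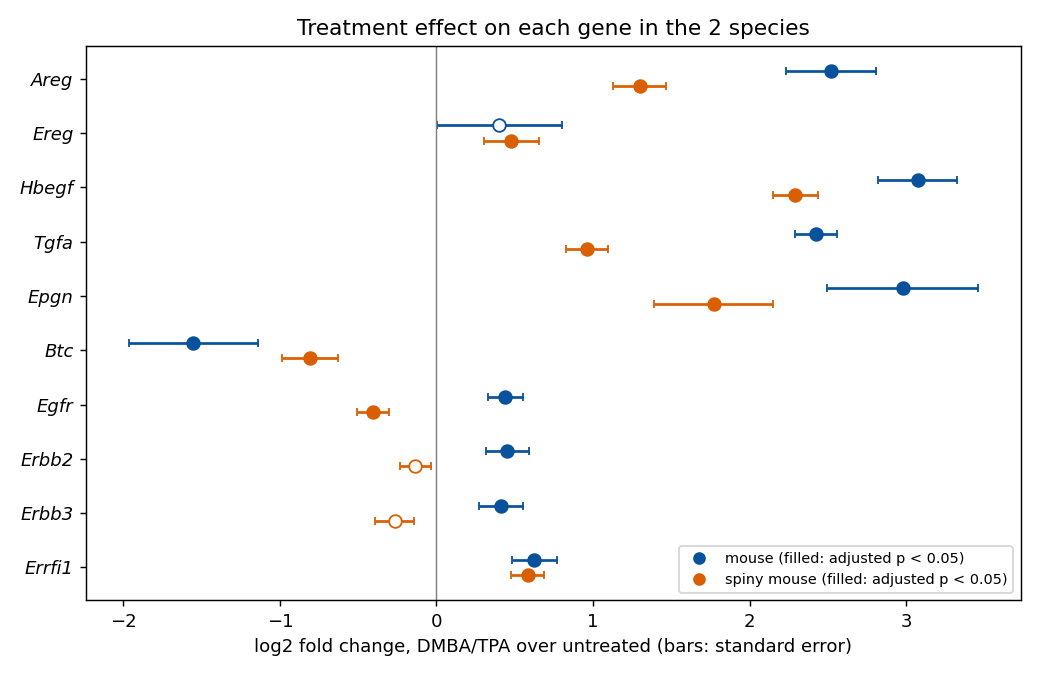
Log2 fold change of each member after DMBA/TPA (horizontal axis) in mouse and spiny mouse, with standard errors as bars and filled points for edgeR adjusted p under 0.05. Hbegf has values of 3.07 and 2.29, beside Epgn at 2.98 and 1.77, Btc lies below 0 in both, and the receptors lie on opposite sides of 0, between 0.41 and 0.45 in mouse and between -0.40 and -0.13 in spiny mouse.

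Egfr encodes the receptor that all 6 ligands bind. In mouse its levels were 258, 279, 262 and 239.8 CPM untreated and 370.4, 342, 349 and 348 CPM treated. In spiny mouse they were 203, 157, 159.7 and 173 CPM untreated and 126, 115, 138 and 145 CPM treated. Treated mouse samples were all above untreated mouse samples, and treated spiny mouse samples were all below untreated spiny mouse samples. The log2 fold changes were 0.44 in mouse (SE 0.112, edgeR adjusted p 0.00769) and -0.40 in spiny mouse (SE 0.102, edgeR adjusted p 0.00834), and their difference was -0.84 (SE 0.139, edgeR adjusted p 0.000181).

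Erbb2 encodes the receptor without a ligand that is the favoured partner of the others. Mouse samples had 174, 151, 149.5 and 207 CPM untreated and 256, 214, 234 and 230.5 CPM treated. Spiny mouse samples had 288, 299, 320.3 and 281 CPM untreated and 323, 264, 248 and 249 CPM treated. The mouse groups did not overlap and the spiny mouse groups did, with treated replicate 1 the highest of all 16 samples. Erbb2 rose by 0.45 in mouse (SE 0.136, edgeR adjusted p 0.0164) and its spiny mouse value was -0.13 (SE 0.0964, edgeR adjusted p 0.260), which was called at -0.23 without treated replicate 1 (edgeR adjusted p 0.0313). The difference was -0.59 (SE 0.165, edgeR adjusted p 0.00869).

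Erbb3 encodes the neuregulin receptor that signals through its partners. Its mouse levels were 214, 179, 168 and 236 CPM untreated and 296, 258, 249 and 255 CPM treated, and its spiny mouse levels were 180.1, 135, 203 and 146 CPM untreated and 150.2, 137, 130.1 and 134 CPM treated. Mouse groups lay apart and spiny mouse groups overlapped. The log2 fold change was 0.41 in mouse (SE 0.140, edgeR adjusted p 0.0294), where the call was lost without treated replicate 1 (0.38, edgeR adjusted p 0.0695). In spiny mouse it was -0.27 (SE 0.123, edgeR adjusted p 0.0918), and was called without untreated replicate 2 (-0.36, edgeR adjusted p 0.0249). The difference was -0.68 (SE 0.187, edgeR adjusted p 0.0079).

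The receptor rises in mouse were small enough to depend on how libraries were scaled. Against TMM, the median log2 fold change of all mouse genes moved by -0.20 with upper-quartile factors and by -0.24 with library size alone. Under those scalings the log2 fold changes were 0.23 and 0.20 for Egfr (edgeR adjusted p 0.115 and 0.160), 0.25 and 0.22 for Erbb2 (edgeR adjusted p 0.0931 and 0.140) and 0.21 and 0.17 for Erbb3 (edgeR adjusted p 0.176 and 0.248), so all 3 calls in mouse were lost. The difference between the species kept its sign for the 3 receptors under these scalings, TMM and DESeq2 size factors, and the call was lost for Erbb2 with library size alone (-0.37, edgeR adjusted p 0.0596). Markers of cells known to carry ErbB3 outside the epidermis were also summed. The 5 melanocyte markers came to 11.6 to 105 CPM untreated and 224 to 358 CPM treated in mouse. In spiny mouse they came to 5.62 to 37.1 and 8.49 to 12.8 CPM, which overlap. All 5 were called higher in mouse, and 0 of the 4 tested in spiny mouse were called. The 6 Schwann cell markers summed to 247 to 367 and 227 to 247 CPM in mouse and to 218 to 273 and 181 to 222 CPM in spiny mouse. Of these 6, 1 was called higher and 4 lower in mouse, and 3 lower in spiny mouse. The part of these cells, of the hair follicle and of muscle in the receptor results was not tested.

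Errfi1 encodes the inhibitor of the EGFR kinase and is itself a gene induced by receptor signalling. It had 101, 62.3, 87.8 and 75.4 CPM in untreated mouse and 134, 126, 121 and 123 CPM in treated mouse. In spiny mouse it had 67.1, 64.2, 65.1 and 62.4 CPM untreated and 87.3, 107, 80.15 and 113 CPM treated. Treated samples lay above untreated ones in both species, and untreated spiny mouse samples stood within 5 CPM of each other. The rise was 0.63 in mouse (SE 0.145, edgeR adjusted p 0.00492) and 0.58 in spiny mouse (SE 0.107, edgeR adjusted p 0.00155), and the difference was -0.04 (SE 0.184, edgeR adjusted p 0.868).

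Compared per kilobase of exon, which allows levels of different genes to be set side by side within a species, receptors stood above ligands in untreated mouse skin. The mean level there was 33.1 CPM per kb for Erbb3 and 32.7 for Erbb2, then 22.9 for Egfr and 22.8 for Errfi1, 12.6 for Btc, 11.6 for Ereg, 5.39 for Tgfa, 3.79 for Epgn, 2.47 for Areg and 1.51 for Hbegf. Among neighbours in that order, the sample ranges were apart between Erbb2 and Egfr and overlapped at every other step. After treatment the mouse order was 44.8 for Erbb2 and 44.0 for Erbb3, then 35.1 for Errfi1, 31.1 for Egfr, 29.8 for Epgn and 29.0 for Tgfa, then 15.4 for Ereg, 14.2 for Areg and 12.7 for Hbegf, and 4.29 for Btc. The sample ranges of Epgn and Tgfa then overlapped that of Egfr, and Btc had gone from the highest ligand mean to the lowest, apart from all the others.

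In untreated spiny mouse skin, Erbb2 stood alone at 61.1 CPM per kb, above Erbb3 at 28.1, Btc at 24.6 and Errfi1 at 19.0. Egfr (14.3), Ereg (14.2) and Tgfa (11.7) overlapped each other, as did Epgn (5.59), Areg (4.08) and Hbegf (3.61) below them. After treatment Erbb2 was still apart at 55.7, and the other 9 members formed a chain of overlapping neighbours from Errfi1 at 28.5 through Erbb3 (23.3), Tgfa (22.7), Ereg (19.8), Epgn (19.0), Hbegf (17.8), Btc (14.1) and Egfr (10.8) to Areg at 10.1. Egfr was 4th of the 10 in treated mouse skin and 9th in treated spiny mouse skin. These ranks rest on the exon lengths of each annotation, which for Hbegf are 4834 bases in mouse and 2253 in spiny mouse. For Btc they are 4520 and 2927 bases, so the ranks are read within a species and not compared between them.

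The ligand transcripts were also summed per sample on the same per-length scale, as a description with no test. The sum of the 6 ligands was 38.5, 14.7, 42.5 and 53.8 CPM per kb in untreated mouse and 109, 98.9, 108.1 and 105 in treated mouse. It was 77.5, 53.6, 54.9 and 69.2 in untreated spiny mouse and 105, 106, 103 and 99.9 in treated spiny mouse. The means were 37.4 ± 16.4 untreated and 105 ± 4.65 treated in mouse, and 63.8 ± 11.6 and 103 ± 2.77 in spiny mouse (SD, n = 4 each). Btc made up 31.9% of the sum in untreated and 4.09% in treated mouse skin, and 38.7% and 13.6% in spiny mouse skin. In mouse the share of Epgn went from 9.54% to 28.3%, that of Tgfa from 17.2% to 27.5%, that of Areg from 7.03% to 13.4%, that of Hbegf from 4.51% to 12.1% and that of Ereg from 29.9% to 14.6%. In spiny mouse the corresponding shares were 8.39% and 18.4% for Epgn, 18.4% and 21.99% for Tgfa, 6.56% and 9.73% for Areg, 5.83% and 17.2% for Hbegf, and 22.2% and 19.1% for Ereg. The ratio of the ligand sum to Egfr was 1.67 ± 0.804 in untreated and 3.38 ± 0.101 in treated mouse, and 4.46 ± 0.347 and 9.69 ± 1.26 in spiny mouse. Gene models differ between the annotations, so sums and ratios are compared within a species.

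**Figure D4:**
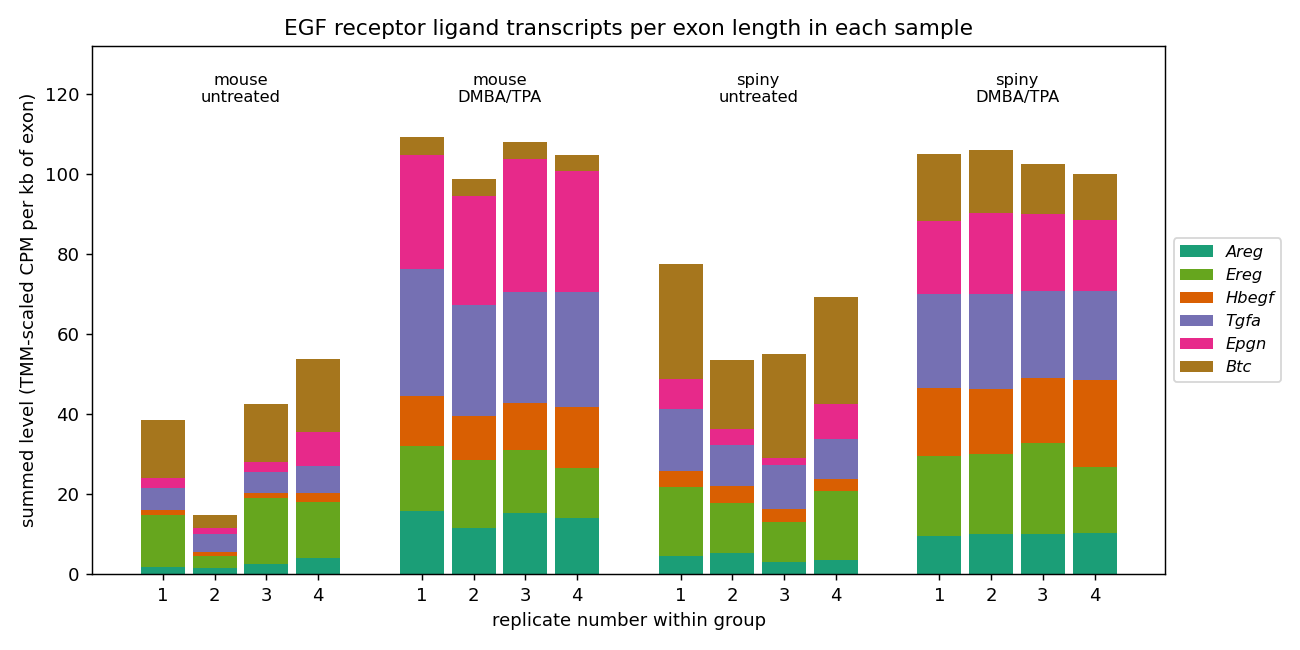
Summed level of the 6 ligand transcripts in each sample (stacked bars, TMM-scaled CPM per kb of exon, replicate number within each group on the horizontal axis), divided by ligand. In mouse, untreated samples lie between 14.7 and 53.8 and treated samples between 98.9 and 109. In spiny mouse, untreated samples lie between 53.6 and 77.5 and treated samples between 99.9 and 106. The Btc portion shrinks after treatment while those of Epgn, Hbegf and Areg grow. Exon lengths differ between the annotations (for Hbegf 4834 bases in mouse and 2253 in spiny mouse), so heights are compared within a species.

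Beyond the members, 5 lists of pathway genes were read. The counts of each list stand beside the shares over all genes tested. In mouse 61.2% were called (25.9% higher and 35.3% lower), and in spiny mouse 55.1% (28.2% higher and 26.9% lower). For the difference 46.1% were called (21.4% larger and 24.7% smaller in spiny mouse). Of the other EGF family genes tested (Egf, Nrg1, Nrg2, Nrg4 and Erbb4), 2 of 5 were higher and 3 lower in mouse, and 1 was higher and 2 lower in spiny mouse. Nrg1, a ligand of ErbB3, was at 3.80 ± 1.03 CPM in untreated and 22.4 ± 2.12 CPM in treated mouse, and at 11.3 ± 6.04 and 41.0 ± 6.42 CPM in spiny mouse (SD, n = 4 each), rises of 2.56 (edgeR adjusted p 1.54e-05) and 1.86 (edgeR adjusted p 0.00214). Egf, the founding ligand, fell in mouse from 15.8 ± 6.87 to 4.09 ± 1.12 CPM (edgeR adjusted p 0.000764), and had 51.6 ± 3.95 and 38.6 ± 10.6 CPM in spiny mouse, with a difference of 1.51 (edgeR adjusted p 0.00356). Nrg2 rose by 0.91 in mouse (edgeR adjusted p 0.00179) and fell by 1.61 in spiny mouse (edgeR adjusted p 0.0209), the widest difference downward of the list at -2.52 (edgeR adjusted p 0.00173). Nrg4 fell by 1.43 in mouse (edgeR adjusted p 0.000329) and by 0.62 in spiny mouse (edgeR adjusted p 0.0235), and its difference of 0.81 (edgeR adjusted p 0.0294) was not called without untreated mouse replicate 2 or with DESeq2 size factors. Erbb4, the fourth receptor, was scarce in mouse, at 0.682 ± 0.229 CPM untreated and 0.112 ± 0.119 CPM treated, where the treated mean is at the level of 3 counts, and was at 1.99 ± 0.324 and 2.25 ± 0.422 CPM in spiny mouse. Its log2 fold change was -2.53 in mouse (SE 0.639, edgeR adjusted p 0.00752), and the difference was 2.70 (edgeR adjusted p 0.00157). In all, 4 of the list were tested for the species difference, with 3 larger and 1 smaller in spiny mouse, and the list's medians were -1.43 in mouse and -0.42 in spiny mouse.

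Of 4 genes of ligand shedding, 2 were higher and 1 lower in mouse, 2 higher in spiny mouse, and 1 was called for the difference. Adam10, a protease that sheds EGF and betacellulin, rose by 0.75 in mouse (edgeR adjusted p 0.00274) and 0.66 in spiny mouse (edgeR adjusted p 0.000804). Adam17 did not pass the test in mouse (0.18, edgeR adjusted p 0.235) or in spiny mouse (0.17, edgeR adjusted p 0.276). Rhbdf2, the iRhom2 gene, rose by 0.41 (edgeR adjusted p 0.0161) and 0.42 (edgeR adjusted p 0.000674). Its relative Rhbdf1 fell by 0.35 in mouse (edgeR adjusted p 0.014), and its difference was 0.29 (edgeR adjusted p 0.040). In mouse, the call of Rhbdf2 was lost under upper-quartile factors and library size alone, and that of Rhbdf1 under DESeq2 size factors. Without untreated mouse replicate 2, edgeR called 0 of the 4 for the difference, and DESeq2 on all samples also called 0, with 0 at an unadjusted p under 0.05 in each case.

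Of the 8 adaptors and effectors, 4 were higher and 4 were not called in each species. The share called over all genes tested was 61.2% in mouse, 55.1% in spiny mouse and 46.1% for the difference. Ptpn11, which encodes the phosphatase SHP2 that ERK activation needs, rose in mouse by 0.98 (edgeR adjusted p 9.31e-05), and had 263 ± 11.6 and 259 ± 12.2 CPM in untreated and treated spiny mouse. Stat3 rose by 0.70 in mouse (edgeR adjusted p 0.00081) and 0.45 in spiny mouse (edgeR adjusted p 0.00101), and Grb2, the adaptor that couples receptors to Ras activation, by 0.48 in spiny mouse (edgeR adjusted p 0.000173). For the difference, 3 were called, all smaller in spiny mouse, among them Ptpn11 at -0.999 (edgeR adjusted p 6.67e-06) and the docking protein gene Gab1 at -0.54 (edgeR adjusted p 0.00677). Under upper-quartile factors or library size alone, the differences of Gab1 and Sos1 were not called, nor was Gab1 in mouse, and the difference then had 1 call each way. Without untreated mouse replicate 2, 8 of 8 were called in mouse and 6 for the difference, 1 larger and 5 smaller in spiny mouse. Over all genes, leaving that library out moved the number called from 12085 to 13944 in mouse and from 6290 to 7711 for the difference.

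Of 9 genes listed as negative regulators of the receptors, 4 were higher and 2 lower in mouse, and 3 higher and 2 lower in spiny mouse. These counts are near the shares called over all genes tested, 61.2% in mouse and 55.1% in spiny mouse. The role of each listed gene was not tested here. Rnf41, a ubiquitin ligase for ErbB3, went from 33.7 ± 1.68 to 70.1 ± 2.47 CPM in mouse, a rise of 1.06 (edgeR adjusted p 1.49e-05), and had 86.5 ± 9.36 and 79.7 ± 5.43 CPM in spiny mouse, with a difference of -1.18 (edgeR adjusted p 1.93e-06). Ptpn1, a phosphatase that acts on EGFR, rose by 0.97 in mouse (edgeR adjusted p 0.000125) and 0.60 in spiny mouse (edgeR adjusted p 7.17e-05). The ubiquitin ligase gene Cblb fell by 0.75 in mouse (edgeR adjusted p 0.00156) and differed by 1.05 (edgeR adjusted p 0.000476). Lrig2 fell by 0.62 in mouse (edgeR adjusted p 0.000873) and differed by 0.55 (edgeR adjusted p 0.00517). In spiny mouse, Socs5 rose by 0.62 (edgeR adjusted p 6.95e-05), Lrig3 fell by 0.43 (edgeR adjusted p 0.00204), and Lrig1, which promotes receptor degradation, fell by 0.32 (edgeR adjusted p 0.0179) with a difference of -0.70 (edgeR adjusted p 0.000821). For the difference 7 of the 9 were called, 2 larger and 5 smaller in spiny mouse, and 4 with upper-quartile factors or library size alone, 2 each way. Without untreated mouse replicate 2, 6 were higher and 2 lower in mouse, and for the difference 2 were larger and 6 smaller in spiny mouse.

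Of 10 feedback genes that ERK signalling is known to induce, 7 were higher and 1 lower in mouse, with a list median of 1.05, and 4 were higher and 2 lower in spiny mouse, with a median of 0.12, beside all-gene medians of -0.15 and -0.01. Dusp5, a nuclear ERK phosphatase, was at 16.7 ± 3.95 CPM in untreated and 96.2 ± 9.55 CPM in treated mouse, and at 22.8 ± 6.94 and 35.6 ± 6.28 CPM in spiny mouse, log2 fold changes of 2.53 (edgeR adjusted p 1.24e-05) and 0.64 (edgeR adjusted p 0.0299). Dusp4 rose by 2.02 in mouse (edgeR adjusted p 1.62e-05), and Spry2, of the Sprouty inhibitors, fell by 0.44 in mouse (edgeR adjusted p 0.0249), a call that was lost under DESeq2 size factors. The ETS factor gene Etv4 rose by 1.85 in mouse (edgeR adjusted p 0.000162) and by 1.18 in spiny mouse (edgeR adjusted p 8.51e-05). In spiny mouse, Spry1 fell by 0.79 (edgeR adjusted p 0.000255) and Spry4 fell by 0.74 (edgeR adjusted p 0.0201). For the difference 7 of 10 were called, all smaller in spiny mouse, with the widest for Dusp5 (-1.88, edgeR adjusted p 0.000124) and Spry4 (-1.88, edgeR adjusted p 7.54e-05), and a list median of -0.82, beside -0.03 over all symbols. Under upper-quartile factors or library size alone, 5 were called smaller and 1 larger, with Spry1 and Etv4 lost. Without untreated mouse replicate 2, 8 were called smaller and 1 larger, and in mouse 7 were higher and 2 lower. No called gene of the 5 lists changed sign under these scalings or DESeq2 size factors. Hyperplastic epidermis markers, called higher for 6 of 6 tested in mouse and 5 of 5 in spiny mouse, summed to 673 to 1759 CPM untreated and 14203 to 19942 CPM treated in mouse, and to 1276 to 2254 and 8575 to 9985 CPM in spiny mouse. Their part in the results was not tested.

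**Figure D5:**
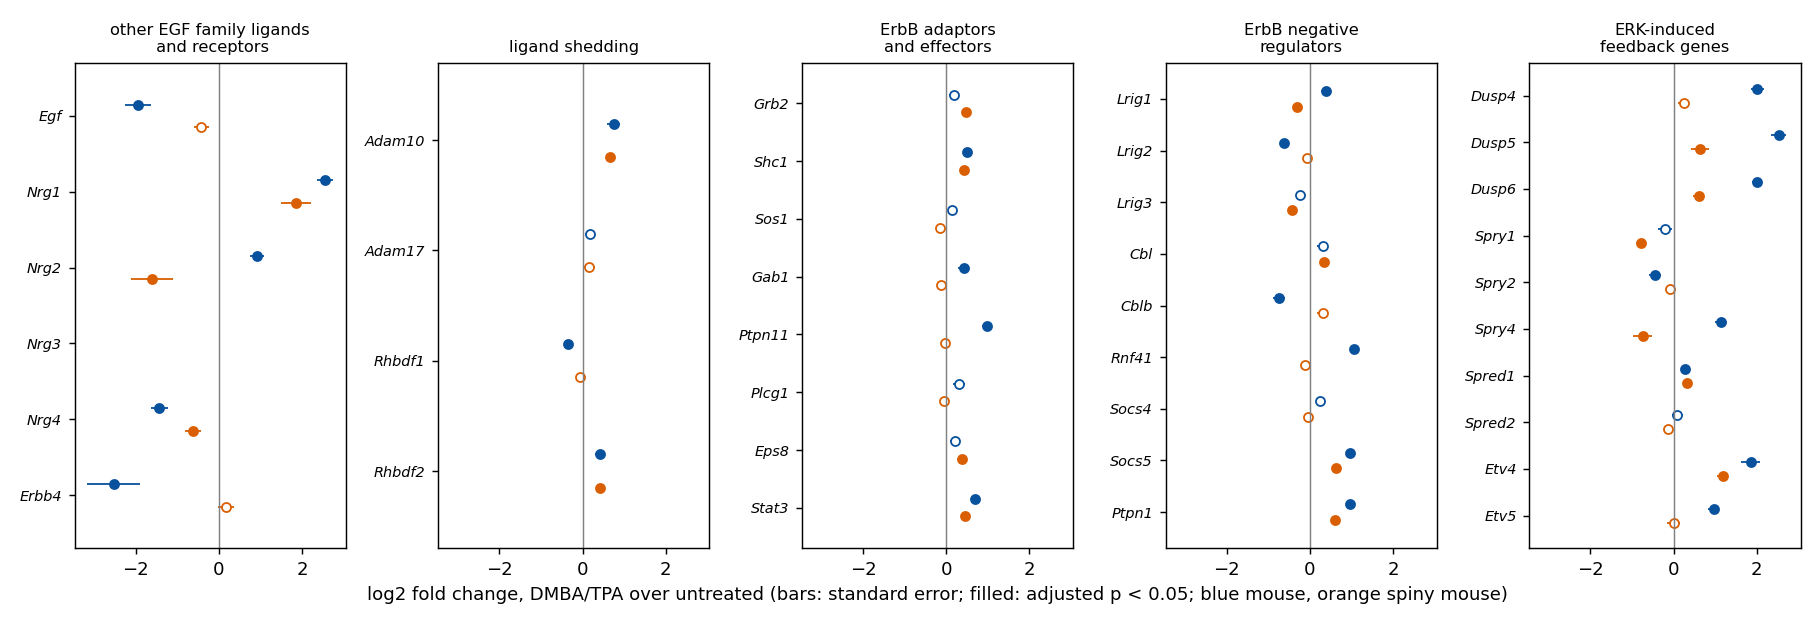
Log2 fold change after DMBA/TPA (horizontal axis) for each gene of the 5 pathway lists in mouse (blue) and spiny mouse (orange), with standard errors as bars and filled points for edgeR adjusted p under 0.05. Among feedback genes Dusp5 and Dusp4 reach 2.53 and 2.02 in mouse, while in spiny mouse Dusp5 is at 0.64 and Spry4 at -0.74.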

How the data were processed

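Polyadenylated RNA of 16 skin samples was compared in 4 groups of 4. The authors deposited raw fragment counts per gene in 1 table per species, made with featureCounts 2.0.3 from pairs of which both reads aligned, per the file headers (GRCm39 with Ensembl 108 for mouse, AcoCah2 for spiny mouse). Trim Galore and HISAT2 are named in the submitters' processing notes, without versions. The libraries were stranded per the labels' protocols, and the counting command sets no strand, so overlapping genes on opposite strands share reads. The series' design text speaks of irradiated fibroblasts, and the sample labels, which describe skin, were followed. Untreated columns carry a code that is not in the labels. They were matched to labels through the letter of the species and the replicate number. Mouse symbols came from GENCODE M39 by identifier (56236 of 56980 matched).

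Low counts were removed with filterByExpr, TMM factors were computed on the genes left, and edgeR 4.0.16 (R 4.3.3) gave quasi-likelihood F tests within each species, with the species by treatment interaction over shared symbols for the difference. Nrg1 was left out of the difference because 2 mouse identifiers carry its symbol. P-values were adjusted by Benjamini-Hochberg over all genes tested and called under 0.05. The standard error is the log2 fold change divided by the square root of F. Levels are TMM-scaled CPM, or CPM per kb using the deposited exon length. The fit was tested on simulated counts. Replicates differed beyond sampling noise (chi-square per degree of freedom 11.35 to 165.8 over 24 within-group pairs), so none was treated as a repeat sequencing of another library. Pairs with untreated mouse replicate 2 gave 132.9 to 165.8, and the other untreated mouse pairs 21.9 to 25.6. Untreated spiny mouse pairs gave 22.6 to 154.7. All 16 samples were kept, and each was left out in turn. Floors of 3 counts cover counting error only.

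Alternatives were a replicate block, DESeq2 1.42.0, its size factors within edgeR, library size alone, upper-quartile factors, no filter, a mean of at least 10 counts and leaving out each sample. Counts for the lists under other scalings and without untreated mouse replicate 2 were added after seeing the data. The members and lists were chosen with earlier results of these data known. Named list genes are the 2 largest rises and falls among the called genes of each list. Adam17, which was not called, is named in addition. Promoter sequences are RefSeq's (GRCm38.p6), placed on GRCm39 by exact match.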

Additional observations from a re-analysis of the deposited data

Results flagged for a closer look

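For 6 members the difference in log2 fold change between the species (spiny mouse minus mouse) passed its own test: Tgfa at -1.46, Areg at -1.22, Egfr at -0.84, Hbegf at -0.78, Erbb3 at -0.68 and Erbb2 at -0.59. For Egfr the treated samples were above the untreated ones without overlap in mouse and below them without overlap in spiny mouse.

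Within the groups of 4, 2 of 40 combinations of gene and group held a sample farther from the others than Dixon's critical value for the gap over the range, where chance gives about 1 in 20. Hbegf in treated spiny mouse replicate 4 had a gap of 0.866 of the range, at 48.9 CPM beside 36.5 to 38.1 CPM. Tgfa in untreated spiny mouse replicate 1 had a gap of 0.836, at 73.8 CPM beside 47.8 to 52.1 CPM.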

How the results depend on the processing

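Of 530 values of the members under alternatives, 488 kept direction and side of the threshold, 25 lost the call, 5 gained it and 12 changed sign. The sign changes were all in uncalled species differences. That of Ereg (0.08) was -0.078 with the replicate block, -0.044 with DESeq2, -0.0425 with its size factors and -0.0556 with no filter, and ran from -0.22 to 0.30 over the samples left out. That of Errfi1 (-0.04) was 0.11 under upper-quartile factors and 0.17 under library size alone, and ran from -0.173 to 0.0407. Lost calls of the mouse receptors, of spiny mouse Ereg and of the Hbegf difference are given with those genes. The Hbegf difference was also lost under upper-quartile factors (-0.63, edgeR adjusted p 0.0737) and under library size alone (-0.56, edgeR adjusted p 0.107). Of the 10 members, 6 to 9 were called in mouse, 7 to 8 in spiny mouse and 4 to 7 for the difference. Among lists, adaptors and effectors called in mouse went from 4 to 8 without untreated mouse replicate 2, and those called for the difference from 3 to 6 without it, to 5 with DESeq2 size factors and to 2 under upper-quartile factors or library size alone. Shedding genes called for the difference went from 1 to 0 without that library and with DESeq2 size factors, and negative regulators from 7 to 4 under upper-quartile factors and to 4 under library size alone. The cause was not tested.

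Higher genes made up 42.4% of the mouse calls under TMM, 48.4% under DESeq2 size factors, 30.5% under upper-quartile factors and 28.6% under library size alone. Larger changes in spiny mouse made up 46.4%, 36.9%, 61.2% and 66.2% of the calls for the difference, whose median over all symbols moved from TMM by -0.10, 0.16 and 0.22. Correlating deviations from the group means over 4 numbers cannot settle whether replicate numbers pair samples. Same-numbered samples correlated at 0.009 on average in mouse and -0.394 in spiny mouse, with 0 of 4 over 0.1 in each. Different-numbered samples correlated at -0.002 and 0.132 on average, with 2 and 8 of 12 over 0.1. The replicate block gave 11246 called genes for mouse, 7418 for spiny mouse and 5723 for the difference, against 12085, 8180 and 6290 without it. Spiny mouse Ereg was the only member whose call the block changed.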
